A study of Mus musculus with 8 samples.

Results

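The genes described here encode the MAP kinase cascade and the phosphatases that act on it or on tyrosine, as expressed in macrophages grown in culture from mouse bone marrow. They were chosen by name from the deposited FPKM table, as symbols beginning with Mapk, Map2k, Map3k or Map4k, with Dusp or Ptpn and a digit, or with Ptpr and a letter. A mean of at least 1 FPKM (RNA-seq fragments relative to transcript length and to the library's total) over the 8 libraries was also required. The name matched 56 of the 6287 genes listed, and 54 passed the minimum. Just inside it lay Dusp18 at a mean of 1.04 FPKM and Ptpn4 at 1.40. Ptprn at 0.474 and Dusp14 at 0.146 lay below it and were not followed further. Other genes of these families were not analysed here.

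The study compared bone marrow derived macrophages of PAD4-/- mice (4 libraries) with those of WT mice (4 libraries). PAD4 citrullinates proteins, turning their arginines into citrullines, and the series' title concerns macrophage migration in diabetic kidney disease. The sample titles of both groups carry "con". Beyond that the labels name no treatment for either group, and give no strain, age, sex or culture day. Each group's 4 samples are independent according to the design text, although which animal gave which library is not stated. The p-values therefore weigh the difference between groups only against the spread among these libraries, and some of that spread may be technical. Because the targeted gene was not analysed here, it could not serve as a check of the genotypes.

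MAP kinases are the last step of relays in which a MAP3K, in some cases activated by a MAP4K, phosphorylates a MAP2K. The MAP2K in turn phosphorylates a MAP kinase on a threonine and a tyrosine. The ERK, JNK and p38 branches differ in their kinases, and in macrophages they carry signals from growth factor and Toll-like receptors to transcription and to mRNA stability. Dual-specificity phosphatases (Dusp) take the phosphates off both residues again. Several of them are themselves switched on by the cascade, so that they limit its duration. Ptpn genes encode phosphatases inside the cell and Ptpr genes encode transmembrane receptors, most of which act on phosphotyrosine.

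The label was checked against the members. It covers 29 Map-named genes and 25 phosphatase genes, but a few belong by name more than by role. Mapkap1 encodes SIN1, a subunit of the mTORC2 complex, and Dusp11 encodes a phosphatase of RNA. Ptpn23 encodes HD-PTP, best known for its part in endosomal sorting. Mapk1ip1 and Mapk1ip1l are named for an interaction. Dusp1, the gene that marks the group, was present in every library. As a check of the cell type, 8 of 10 macrophage markers were listed and all 8 were above 1 FPKM. Their summed level was 19311 to 25196 FPKM in PAD4-/- libraries and 17699 to 18317 FPKM in WT libraries, most of it Lyz2. Of 13 neutrophil markers only Lcn2 was listed (0.31 to 0.52 FPKM in PAD4-/- and 0.52 to 1.13 in WT). The 3 of 9 dendritic cell markers listed summed to 0.79 to 1.02 FPKM in PAD4-/- and 0.62 to 0.92 in WT, and the 2 of 7 fibroblast markers to 0.38 to 0.84 in PAD4-/- and 0.21 to 0.43 in WT. The 3 of 6 osteoclast markers listed (Acp5, Ctsk and Dcstamp) summed to 9.68 to 11.6 FPKM in PAD4-/- libraries and 17.1 to 20.4 in WT libraries. None of these markers was at 0 in all 8 libraries. Markers of lymphocytes (T, NK and B), of erythroid cells and of mast cells were not analysed here. The part of these differences in the results below was not tested. In bulk RNA, a change in the share of a cell type and a change in RNA per cell cannot be told apart.

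The promoters of the 3 MAP kinase phosphatase genes that passed the test are shown because these genes share a role yet changed in opposite directions. Dusp1 and Dusp5 were lower and Dusp2 was higher in PAD4-/- macrophages. Each line gives the 250 bases before the annotated start (RefSeq, GRCm38.p6), 5′ to 3′ on the gene's own strand. Capitals mark a CRE (TGACGTCA), an E-box (CACGTG), a PU.1 motif (GAGGAAGT) or a CArG box, each searched on both strands. The Dusp1 window is chr17:26508473-26508722 (minus strand), that of Dusp2 is chr2:127335909-127336158 (plus strand) and that of Dusp5 is chr19:53528895-53529144 (plus strand).
Dusp1: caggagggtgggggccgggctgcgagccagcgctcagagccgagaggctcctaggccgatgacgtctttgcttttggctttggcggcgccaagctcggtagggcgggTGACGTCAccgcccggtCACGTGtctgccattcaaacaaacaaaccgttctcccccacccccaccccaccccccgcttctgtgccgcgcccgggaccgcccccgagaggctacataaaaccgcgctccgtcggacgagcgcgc
Dusp2: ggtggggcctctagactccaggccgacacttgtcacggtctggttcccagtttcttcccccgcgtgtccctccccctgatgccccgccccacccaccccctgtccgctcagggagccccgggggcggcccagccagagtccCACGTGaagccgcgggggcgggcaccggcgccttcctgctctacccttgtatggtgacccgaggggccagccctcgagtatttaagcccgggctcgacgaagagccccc
Dusp5: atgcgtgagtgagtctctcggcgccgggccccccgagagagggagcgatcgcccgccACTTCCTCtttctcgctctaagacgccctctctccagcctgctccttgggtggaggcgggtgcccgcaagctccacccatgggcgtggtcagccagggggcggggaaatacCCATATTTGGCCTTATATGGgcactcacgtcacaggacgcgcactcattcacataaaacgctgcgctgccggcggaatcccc
The Dusp1 window holds a CRE that begins 143 bases before the start and an E-box at 126. Dusp2 has an E-box at 109, and Dusp5 has adjoining CArG boxes at 82 and 72 and, on the other strand, a PU.1 motif at 193. None of these matches overlaps another. The Dusp1, Dusp2 and Dusp5 windows also hold GC boxes (GGGCGG), which are not capitalised. A CRE was present in 1.55% of all 32851 RefSeq promoter windows of this length, an E-box in 6.02%, the PU.1 motif in 2.44% and a CArG box in 1.47%. GC boxes were in 32.7% of windows, the AP-1 motif (TGANTCA) in 6.75% and TATAAA in 12.4%. A window was found for 48 of the 54 members. Counted per gene, 32 of the 48 members (66.7%) had a GC box, against 35.4% of all genes, while 2 (4.17%) had a CRE, against 1.77%. All genes here are the 27025 with a window, whether expressed in these cells or not, whereas the members had passed the minimum level. The shares among the tested genes are not given, so a difference cannot be read as a trait of these families. An E-box was in 4 (8.33%, against 6.86%), a PU.1 motif in 3 (6.25%, against 2.79%), a CArG box in 1 (2.08%, against 1.62%), and AP-1 and TATAAA in 2 each (4.17%, against 7.82% and 14.3%). These matches describe letters in a window and do not show a bound site.

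The members spanned a wide range of levels. The highest mean over all libraries was that of Mapkapk2, at 158 FPKM, which encodes MK2, a kinase activated by p38. Ptpn1 followed at 105.5 FPKM, then Ptprj at 84.7, Ptprc at 83.1, Ptpn12 at 82.3 and Map2k1 at 81.4. The median member had 14.1 FPKM, close to the median of all 5674 genes that passed the minimum (14.5 FPKM). Within each tier a single gene or a few stood out. Map3k3 (42.3 FPKM) was the highest MAP3K, and the other 9 had means of 1.47 to 15.3 FPKM. Among MAP kinases Mapk6 led at 72.5 FPKM, followed by Mapk14 (27.6), Mapk9 (16.9), Mapk7 (13.0) and Mapk8 (3.52). Of the MAP kinase phosphatases, Dusp4 (37.3) and Dusp1 (28.7) were well above Dusp16 (7.94), Dusp7 (4.70), Dusp2 (3.07), Dusp6 (2.24) and Dusp5 (1.80).

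**Figure D1:**
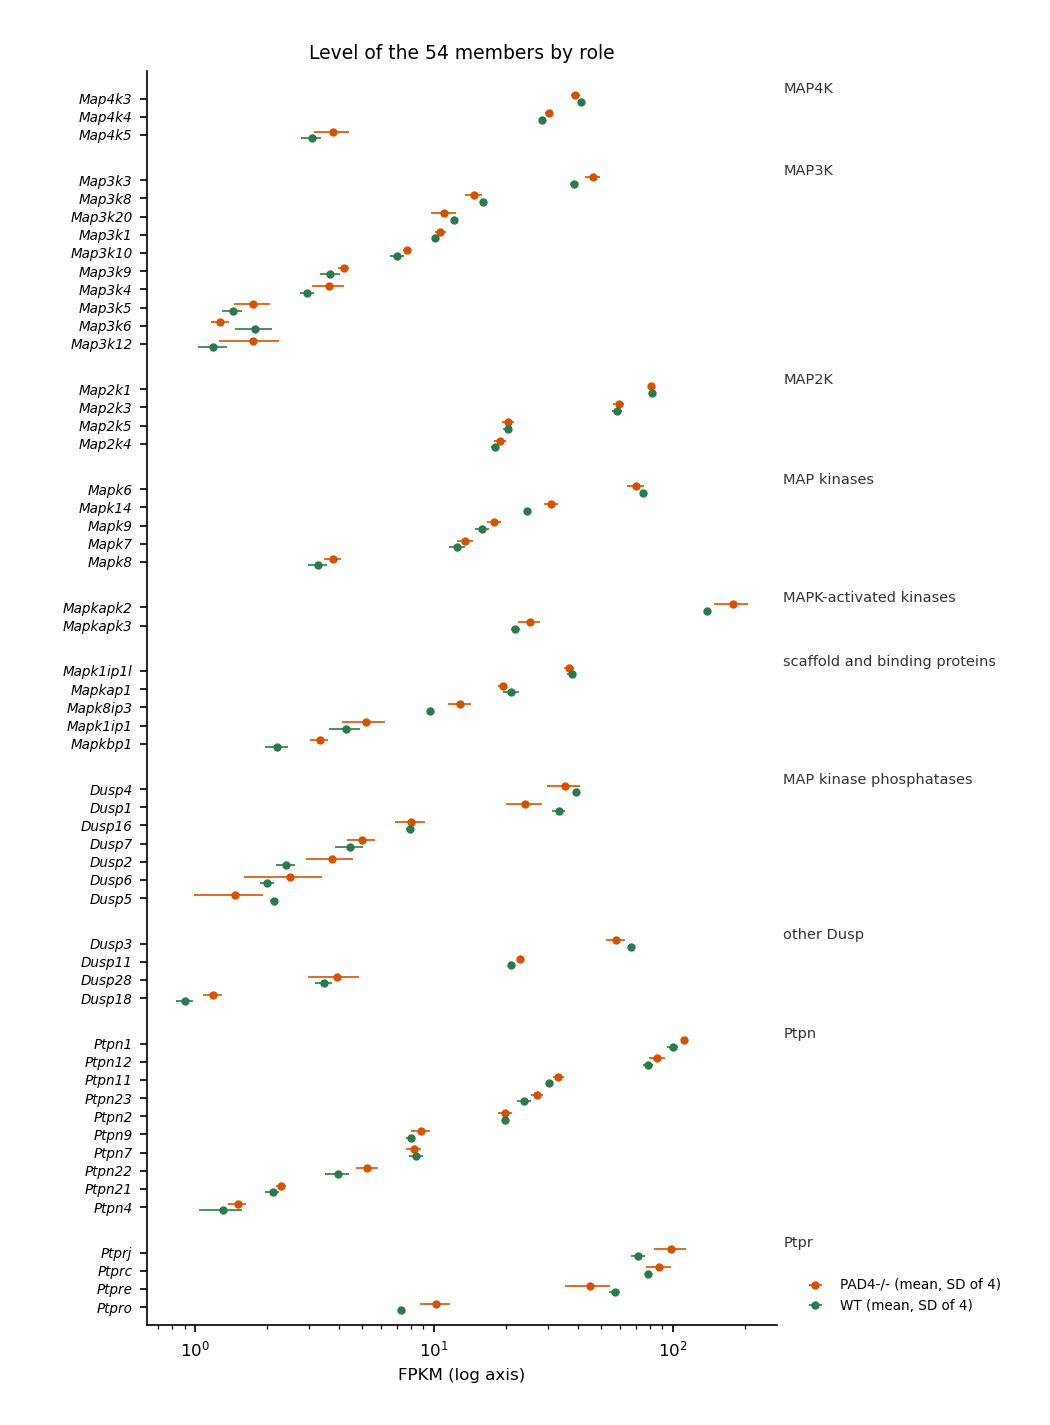
FPKM of the 54 members on a log axis, by role, as the mean and SD of 4 PAD4-/- libraries (orange, upper) and 4 WT libraries (green, lower). Mapkapk2 was the highest in both groups, at 177 FPKM in PAD4-/- and 139 FPKM in WT.

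Of the 54 members, 11 were higher and 4 lower in PAD4-/- macrophages at an adjusted p below 0.05, and 39 did not pass. The test was limma on log2(FPKM + 1), adjusted by Benjamini-Hochberg over all 5674 genes. All fold changes below are on that scale, which shrinks the change of low genes, so ratios of mean FPKM are given as well. The share of members called, 27.8%, was close to the background, in which 27.7% of all genes tested were called. By direction, 20.4% of the members were higher and 7.41% lower, against a background of 21.1% higher and 6.61% lower. As a group the members were therefore not set apart by their number of calls, and the results below concern single genes. The counts per role below rest on 2 to 10 genes each and are not read as a trait of a role. The changes were small. None of the 15 called members reached 0.5 in absolute log2 fold change, and the largest were those of Dusp2 (0.47) and Dusp1 (-0.46). The median log2 fold change was 0.12 over the members and 0.08 over all genes tested. Groups did not overlap for 21 members (38.9%), against a background of 31.1%. All 15 called members were among them, but the call itself favours groups that lie apart, so this adds no support. The PAD4-/- libraries were all higher for 17 of the 54 members (31.5%, against a background of 24%) and all lower for 4 (7.41%, against a background of 7.12%).

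The counts depended on scaling and on single libraries. With median-of-ratios scaling, which centres the typical gene near no change, the calls were 8 higher and 6 lower, a share of 57.1% higher in place of 73.3%. The background was then 20.3% called, 9.24% higher and 11.1% lower. Dusp18, Mapkapk2 and Ptpn1 lost their call under that scaling, while Map4k3 and Mapkap1 were called lower. Without PAD4-/- replicate 1, 18 members were higher and 7 lower, and without WT replicate 2, 7 were higher and 2 lower. Without PAD4-/- replicates 3 or 4, or WT replicates 1, 3 or 4, 1 member was lower in each case. The shares of all genes called without single libraries are not given, so these counts cannot be set against a background.

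**Figure D2:**
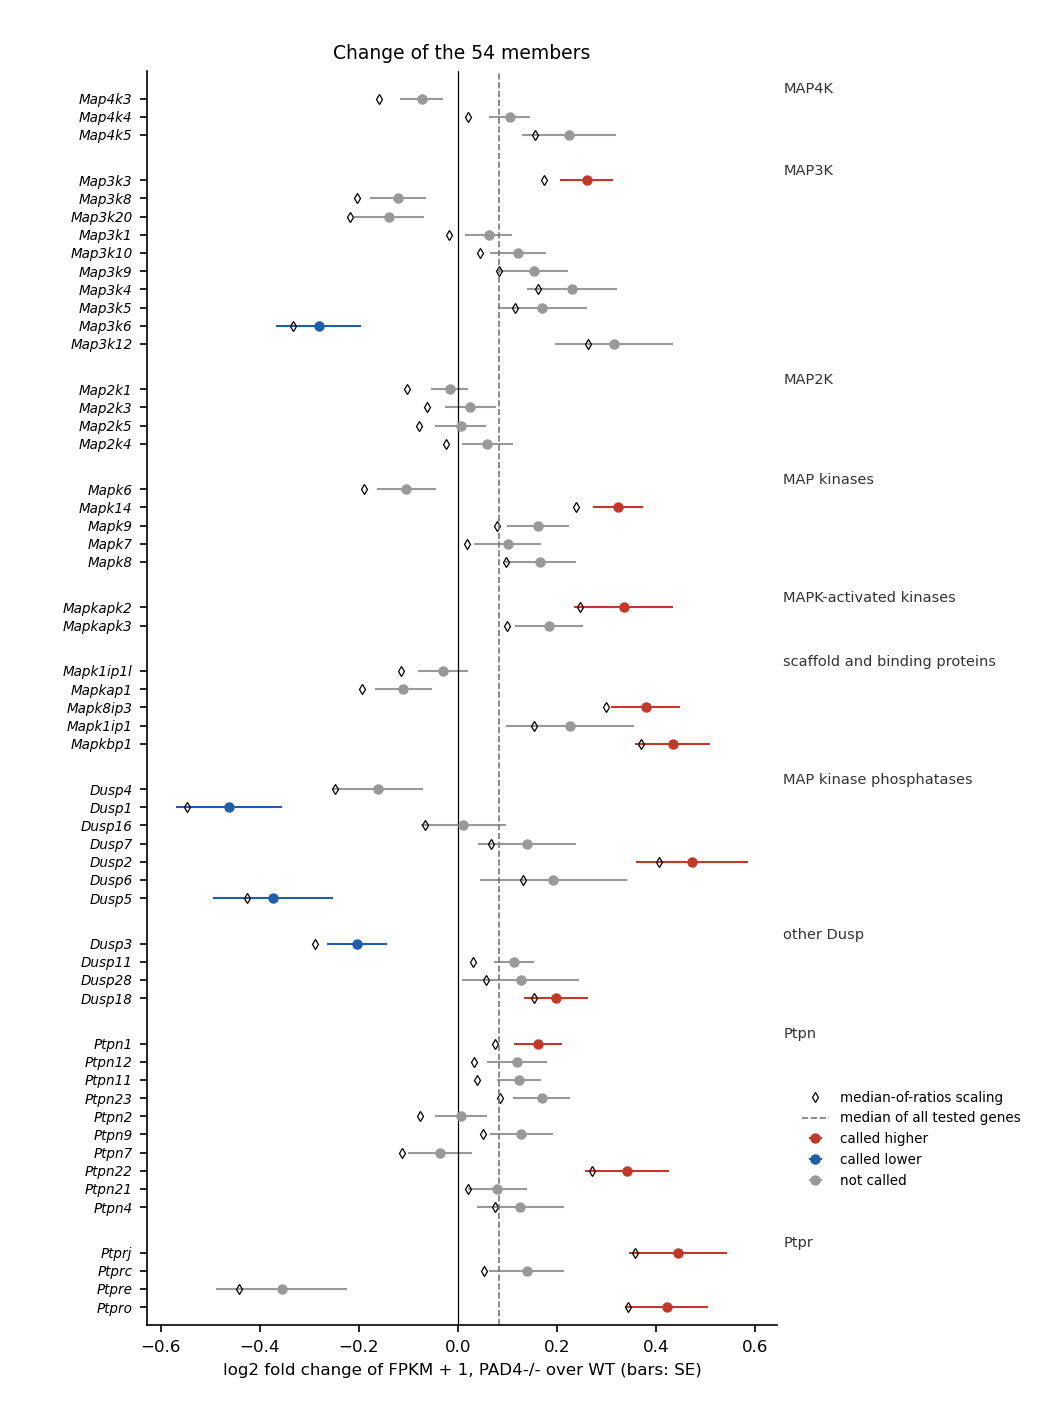
Log2 fold change of FPKM + 1 (PAD4-/- over WT) for the 54 members by role, with SE as bars; red marks the 11 called higher, blue the 4 called lower and grey the rest. Open diamonds give the value with median-of-ratios scaling, which lies to the left of the deposited one for every member, and the dashed line is the median of all tested genes (0.08).

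The PAD4-/- libraries were not alike. The median difference of the 54 members from the WT mean was 0.02, 0.09, 0.15 and 0.12 in PAD4-/- replicates 1 to 4, on the log2 scale, beside 0.05, 0.06, 0.11 and 0.09 over all genes tested. In WT libraries the members' median lay between -0.01 and 0.01. For 12 of the 15 called members both PAD4-/- replicates 3 and 4 lay farther from the WT mean than replicates 1 and 2 did, as for 1006 of all 1570 called genes (64.1%). The exceptions were Ptpn22, Ptpn1 and Dusp18. The SD over 4 libraries was larger in PAD4-/- than in WT for 42 members (77.8%), as for 73.1% of all genes tested.

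**Figure D3:**
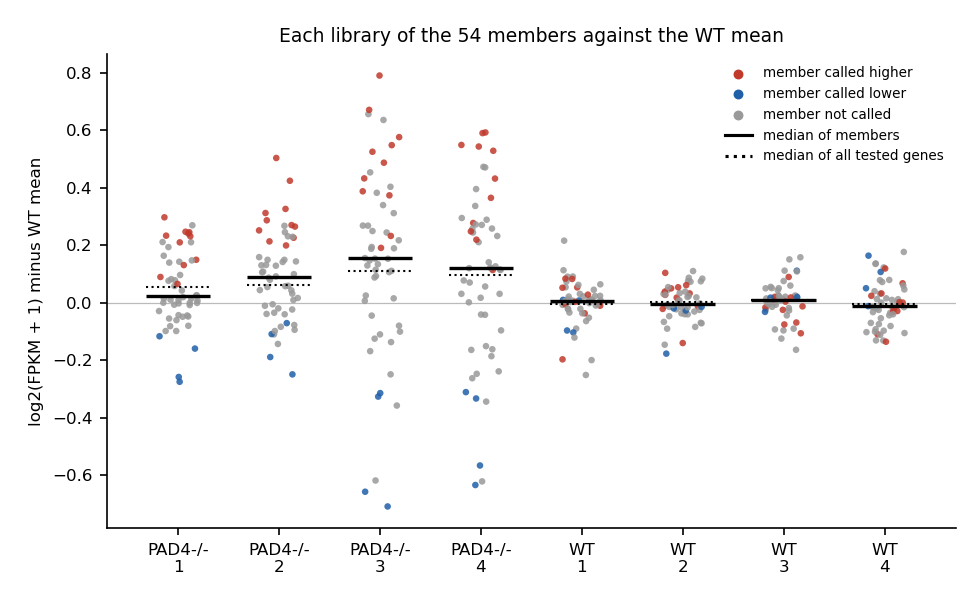
Each point is the log2(FPKM + 1) of a member in a library minus its WT mean, for 4 PAD4-/- and 4 WT libraries, coloured by call. Solid bars (median of members) reach 0.15 and 0.12 in PAD4-/- replicates 3 and 4 and lie between -0.01 and 0.01 in WT; dotted bars are the median of all tested genes.

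At the top of the cascade, none of the 3 MAP4K genes passed the test, and their ratios of mean FPKM were 0.950 for Map4k3, 1.08 for Map4k4 and 1.23 for Map4k5. These kinases link cell surface receptors to the JNK branch. Map4k3, the highest, had 40.99, 39.94, 38.23 and 36.88 FPKM in PAD4-/- libraries and 41.03, 40.84, 41.80 and 40.62 FPKM in WT libraries. The groups overlapped.

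Among 10 MAP3K genes, 1 rose and 1 fell. Map3k3 (chromosome 11, 106084587 to 106156656) encodes MEKK3, a kinase upstream of the ERK5 and p38 branches. It had 42.69, 45.07, 50.53 and 46.74 FPKM in PAD4-/- libraries and 37.40, 38.04, 37.95 and 40.28 FPKM in WT libraries. Each PAD4-/- library lay above each WT library, and replicate 3 was the highest. This was a log2 fold change of 0.26 (SE 0.05, adjusted p = 0.00941), a ratio of 1.20. The call was lost in 1 of 19 alternatives, median-of-ratios scaling together with leaving out PAD4-/- replicates 3 and 4 (log2 fold change 0.13, adjusted p = 0.119).

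Map3k6, which encodes ASK2, a partner of the stress kinase ASK1, had 1.28, 1.42, 1.20 and 1.19 FPKM in PAD4-/- libraries and 1.58, 1.44, 1.98 and 2.09 FPKM in WT libraries. The nearest values of the groups, 1.42 and 1.44, almost met. On the log2 scale the change was -0.28 (SE 0.09, adjusted p = 0.0366) and the ratio 0.718. Without PAD4-/- replicates 3 or 4 or WT replicates 1, 3 or 4 the call was lost (adjusted p = 0.0538 to 0.0980), the lowest and highest adjusted p of all alternatives being 0.0228 and 0.146. Map3k5, the gene of ASK1 itself, had a ratio of 1.22 and did not pass (adjusted p = 0.168).

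The other MAP3K genes did not pass the test. Map3k8, whose product TPL2 activates the ERK branch downstream of Toll-like receptors, had 16.05, 15.04, 14.06 and 13.26 FPKM in PAD4-/- libraries and 15.66, 16.02, 16.10 and 15.94 FPKM in WT libraries. The groups overlapped through PAD4-/- replicate 1 (adjusted p = 0.133). Map3k20, which encodes the ribotoxic stress kinase ZAK, had a ratio of 0.905 (adjusted p = 0.158). Map3k12 had the highest ratio of the MAP3K genes, 1.47, from low values (1.75 ± 0.492 FPKM in PAD4-/- and 1.19 ± 0.166 in WT, SD, n = 4), with adjusted p = 0.0709 in limma. Ratios of Map3k1, Map3k4, Map3k9 and Map3k10 were 1.05, 1.24, 1.14 and 1.10.

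None of the 4 MAP2K genes passed the test. Map2k1, which encodes MEK1 of the ERK branch, had 81.83, 79.57, 82.73 and 79.53 FPKM in PAD4-/- libraries and 83.09, 83.01, 81.55 and 79.88 FPKM in WT libraries. Its log2 fold change was -0.02 (SE 0.04). Map2k3, which activates p38, Map2k4, which activates JNK and p38, and Map2k5, which activates ERK5, had ratios of 1.02, 1.04 and 1.00. They were not called in any alternative run, the lowest adjusted p being 0.0794 for Map2k1 with median-of-ratios scaling. A p that misses the threshold does not show equal levels, but the log2 fold changes of all 4 lay between -0.02 and 0.06, or -0.10 and -0.02 with median-of-ratios scaling.

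Of 5 MAP kinases, 1 rose. Mapk14 (chromosome 17, 28691342 to 28748405) encodes p38 alpha, the main p38 kinase of macrophages. It had 28.86, 29.52, 33.28 and 31.71 FPKM in PAD4-/- libraries and 24.22, 24.98, 24.55 and 23.90 FPKM in WT libraries. The lowest PAD4-/- library stood well clear of the highest WT library. The log2 fold change was 0.32 (SE 0.05, adjusted p = 0.00360), a ratio of 1.26, and this was the smallest adjusted p of any member. The call held in each of the 19 alternatives, with adjusted p between 0.000150 and 0.0227.

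The JNK genes Mapk8 and Mapk9 had ratios of 1.16 and 1.13 and did not pass (adjusted p = 0.105 and 0.0771). The values of Mapk9 did not overlap between groups, at 16.74 to 19.26 FPKM in PAD4-/- libraries and 14.36 to 16.70 in WT libraries. Mapk7, which encodes ERK5, had a ratio of 1.08. Mapk6, which encodes the atypical kinase ERK3, had 74.63, 73.97, 68.69 and 62.35 FPKM in PAD4-/- libraries and 78.44, 73.69, 74.05 and 73.98 FPKM in WT libraries. The groups overlapped, and the ratio was 0.932 (adjusted p = 0.197).

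Mapkapk2 (chromosome 1, 131053700 to 131097871), the substrate kinase of p38 that protects cytokine mRNAs from decay, had 145.54, 159.78, 200.51 and 203.84 FPKM in PAD4-/- libraries and 138.88, 141.72, 136.66 and 139.11 FPKM in WT libraries. PAD4-/- replicate 1 lay just above the highest WT library, and replicates 3 and 4 were far above it. This was a log2 fold change of 0.33 (SE 0.10, adjusted p = 0.0344), a ratio of 1.28. Without both PAD4-/- replicates 3 and 4 it was 0.13 (adjusted p = 0.0806). The call was also lost without either of them or without any 1 WT library (adjusted p = 0.0712 to 0.0839), and likewise under median-of-ratios scaling (0.0780), in a full range of 0.000394 to 0.364. Mapkapk3, its relative, did not pass, at 25.1 ± 2.54 FPKM in PAD4-/- and 21.9 ± 0.871 FPKM in WT (SD, n = 4, limma adjusted p = 0.0706).

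Of 5 scaffold and binding genes, 2 rose (40.0%, against a background of 21.1%). The products of both bind JNK, but so few genes cannot show a trait of that branch. Mapk8ip3 (chromosome 17, 24897506 to 24936977) encodes JIP3, a scaffold for JNK that also binds kinesin. It had 11.27, 12.30, 14.51 and 13.31 FPKM in PAD4-/- libraries and 9.57, 9.74, 9.76 and 9.38 FPKM in WT libraries. The WT libraries were nearly alike and all PAD4-/- libraries lay above them. On the log2 scale the change was 0.38 (SE 0.07, adjusted p = 0.00591), a ratio of 1.34. Its exons overlap those of Eme2 on the same strand and of Mrps34 and Nme3 on the opposite strand, and the sources used do not say whether reads were counted by strand. Mrps34 had 17.0 ± 2.71 FPKM in PAD4-/- and 14.9 ± 1.34 FPKM in WT (SD, n = 4), and its part in the change of Mapk8ip3 was not tested.

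Mapkbp1, whose product binds JNK, had 2.91, 3.27, 3.46 and 3.59 FPKM in PAD4-/- libraries and 2.37, 2.42, 2.02 and 1.95 FPKM in WT libraries. The groups did not overlap. The log2 fold change was 0.43 (SE 0.08, adjusted p = 0.00517), a ratio of 1.51. The calls of Mapk8ip3 and Mapkbp1 held in each alternative run. Mapkap1, the mTORC2 subunit, had a ratio of 0.921 and did not pass (adjusted p = 0.166). Mapk1ip1l, the highest of this class, had 38.24, 38.40, 35.47 and 35.06 FPKM in PAD4-/- libraries and 39.56, 38.17, 37.17 and 35.44 FPKM in WT libraries. These overlapped widely. Mapk1ip1 had a ratio of 1.22 (adjusted p = 0.199).

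**Figure D4:**
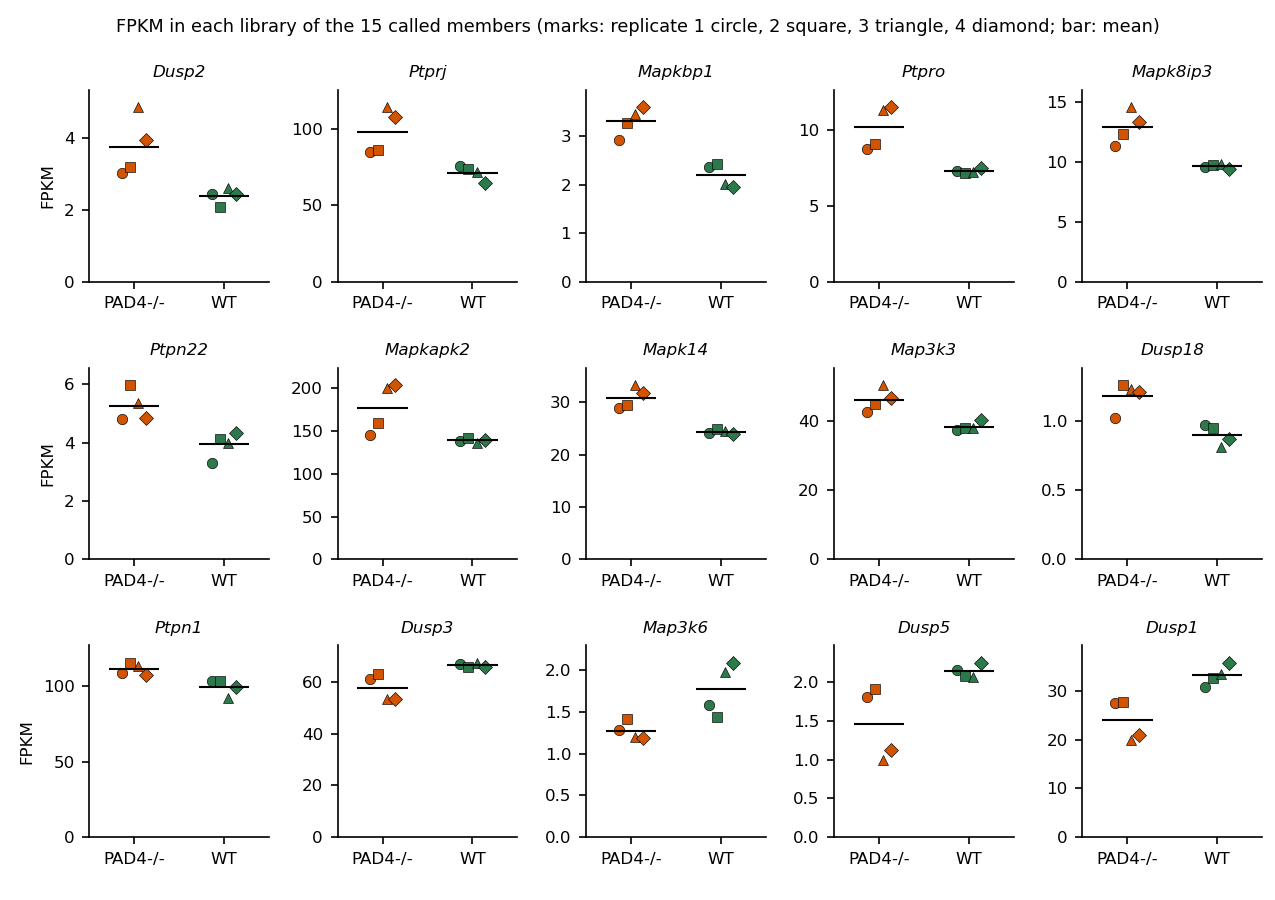
FPKM of the 15 called members in each of 4 PAD4-/- libraries (orange, left) and 4 WT libraries (green, right), with the shape of the mark giving the replicate number and a bar at the mean; each panel starts at 0. In every panel the groups are separate, and for Mapkapk2 PAD4-/- replicates 3 and 4 stand at 200.51 and 203.84 FPKM, against 136.66 to 141.72 in the WT libraries.

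The MAP kinase phosphatases changed in both directions. Of 7 tested, Dusp1 and Dusp5 fell, Dusp2 rose and 4 did not pass. Dusp1 (chromosome 17, 26505591 to 26508472) encodes MKP-1, a nuclear phosphatase of p38 and JNK that is induced early after stimulation and limits cytokine production in macrophages. It had 27.61, 27.79, 19.94 and 21.05 FPKM in PAD4-/- libraries and 30.85, 32.75, 33.64 and 35.85 FPKM in WT libraries. All PAD4-/- libraries were below all WT libraries, and replicates 3 and 4 were the lowest. This was a log2 fold change of -0.46 (SE 0.11, adjusted p = 0.0140), a ratio of 0.724. The call held in each of the 19 alternatives, with adjusted p between 0.000332 and 0.0429. Without both PAD4-/- replicates 3 and 4 the log2 fold change was -0.25. Exons of Dusp1 overlap those of Ergic1 on the opposite strand, which had 44.1 ± 5.39 FPKM in PAD4-/- and 49.2 ± 1.27 FPKM in WT (SD, n = 4). Its part in the change of Dusp1 was not tested.

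Dusp5 (chromosome 19, 53529145 to 53541809), which encodes a nuclear phosphatase specific for ERK, had 1.81, 1.91, 0.99 and 1.12 FPKM in PAD4-/- libraries and 2.16, 2.08, 2.07 and 2.25 FPKM in WT libraries. PAD4-/- replicates 3 and 4 stood near the minimum level used here, and replicates 1 and 2 lay close below WT. On the log2 scale the change was -0.37 (SE 0.12, adjusted p = 0.0438), a ratio of 0.681. Without PAD4-/- replicates 3 or 4 or any 1 WT library the call was lost (adjusted p = 0.0863 to 0.109), within a range of 0.00107 to 0.218 over all alternatives. With the replicate number as a block the adjusted p was 0.0513. Without both PAD4-/- replicates 3 and 4 the log2 fold change was -0.13.

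Dusp2 (chromosome 2, 127336159 to 127338377), which encodes PAC-1, a nuclear phosphatase first known from activated leukocytes, had 3.01, 3.20, 4.85 and 3.93 FPKM in PAD4-/- libraries and 2.45, 2.07, 2.60 and 2.44 FPKM in WT libraries. The groups did not overlap, and PAD4-/- replicate 3 was the highest. The log2 fold change was 0.47 (SE 0.11, adjusted p = 0.0156), a ratio of 1.57. Without both PAD4-/- replicates 3 and 4 it was 0.28. The call was lost without WT replicate 2 (adjusted p = 0.0501), the lowest and highest adjusted p of all alternatives being 0.000635 and 0.0887.

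Dusp4, the highest MAP kinase phosphatase, had 39.21, 40.78, 30.40 and 30.70 FPKM in PAD4-/- libraries and 39.44, 38.83, 39.04 and 39.66 FPKM in WT libraries. PAD4-/- replicates 1 and 2 were at the WT level, and replicates 3 and 4 were below it (ratio 0.899, adjusted p = 0.195). Dusp6, an ERK phosphatase of the cytoplasm, had 1.89, 1.77, 3.71 and 2.61 FPKM in PAD4-/- libraries and 1.86, 2.06, 2.15 and 1.90 FPKM in WT libraries. Again PAD4-/- replicates 1 and 2 overlapped WT (ratio 1.25, adjusted p = 0.336). Dusp7 and Dusp16 had ratios of 1.12 and 1.02 (adjusted p = 0.297 and 0.933).

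Of the other Dusp genes, Dusp3 fell and Dusp18 rose. Dusp3 (chromosome 11, 101971141 to 101987013) encodes VHR, a small phosphatase of ERK and JNK. It had 61.16, 63.16, 53.20 and 53.33 FPKM in PAD4-/- libraries and 66.76, 65.72, 67.33 and 65.84 FPKM in WT libraries. The WT libraries were within a narrow band and all PAD4-/- libraries lay below it. This was a log2 fold change of -0.20 (SE 0.06, adjusted p = 0.0320), a ratio of 0.869. The call was lost without PAD4-/- replicates 3 or 4 or any 1 WT library (adjusted p = 0.0607 to 0.0832), and without both PAD4-/- replicates the log2 fold change was -0.09 (adjusted p = 0.148), within a range of 0.000802 to 0.148. Exons of Dusp3, as of Dusp5 and Mapkbp1, overlap those of antisense genes, and reads of the pair may not be told apart.

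Dusp18, a low gene with 1.02, 1.26, 1.23 and 1.21 FPKM in PAD4-/- libraries and 0.97, 0.95, 0.81 and 0.87 FPKM in WT libraries, had a ratio of 1.31 and a log2 fold change of 0.20 (SE 0.06, adjusted p = 0.0462). The groups were 0.05 FPKM apart at their nearest. With a WT mean of 0.90 FPKM it passed the minimum only through the PAD4-/- libraries, the group where it was higher, so its call lends the count of members no support. Among the 53 members with both group means at 1 FPKM or more, 10 were higher and 4 lower (18.9% and 7.55%). Of all 5614 genes with both group means at that level, 21.0% were higher and 6.48% lower. The call was lost in 13 of 18 alternatives, among them leaving out PAD4-/- replicates 2, 3 or 4 or any 1 WT library (adjusted p = 0.0752 to 0.112) and the replicate block (0.0899), within a range of 0.0193 to 0.322. Dusp11, the RNA phosphatase, and Dusp28 had ratios of 1.09 and 1.13 and did not pass (adjusted p = 0.0594 and 0.427).

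Of 10 Ptpn genes, 2 rose. Ptpn22 (chromosome 3, 103856575 to 103912252), which encodes a phosphatase of Src family kinases in leukocytes, had 4.81, 5.97, 5.37 and 4.84 FPKM in PAD4-/- libraries and 3.29, 4.13, 3.98 and 4.34 FPKM in WT libraries. Here PAD4-/- replicate 2 was the highest, and the groups did not overlap. On the log2 scale the change was 0.34 (SE 0.09, adjusted p = 0.0177), a ratio of 1.33. The call was lost with quantile normalization (adjusted p = 0.0908) and, without PAD4-/- replicates 3 and 4, with median-of-ratios scaling (0.0587), the lowest adjusted p over all alternatives being 0.00583.

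Ptpn1 (chromosome 2, 167930750 to 167979385) encodes PTP1B, a phosphatase of the endoplasmic reticulum that acts on the insulin receptor and on JAK2. It had 108.99, 115.46, 113.65 and 107.69 FPKM in PAD4-/- libraries and 103.15, 103.27, 92.32 and 99.58 FPKM in WT libraries. The groups lay close but apart, and PAD4-/- replicate 2 was the farthest from WT. The log2 fold change was 0.16 (SE 0.05, adjusted p = 0.0325), a ratio of 1.12. With median-of-ratios scaling it was 0.08 (adjusted p = 0.308). The call was also lost without PAD4-/- replicates 2 or 3 or any 1 WT library (adjusted p = 0.0536 to 0.0871) and with the replicate block (0.0585), within a range of 0.0267 to 0.308.

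The other Ptpn genes did not pass. Ptpn11, which encodes SHP-2, a positive regulator of the Ras branch, had a ratio of 1.09 (adjusted p = 0.0618) with groups that did not overlap, at 31.17 to 35.31 FPKM in PAD4-/- libraries and 29.89 to 30.45 in WT libraries. Ptpn12, which encodes PTP-PEST, a regulator of the adhesion and motility machinery, had a ratio of 1.09 from overlapping groups (85.8 ± 6.67 FPKM in PAD4-/- and 78.8 ± 3.90 in WT, SD, n = 4, limma adjusted p = 0.155). Ptpn2, the close relative of Ptpn1, had a ratio of 1.01. Ptpn7, a leukocyte phosphatase of ERK and p38, had one of 0.973. Ptpn23 had a ratio of 1.13 (adjusted p = 0.0544), and Ptpn4, Ptpn9 and Ptpn21 had ratios of 1.15, 1.11 and 1.08.

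Among 4 receptor phosphatases, Ptprj and Ptpro rose. Ptprj (chromosome 2, 90429756 to 90580694) encodes CD148, which in macrophages activates Src family kinases together with CD45. It had 84.66, 86.05, 113.91 and 107.65 FPKM in PAD4-/- libraries and 75.50, 73.73, 71.37 and 64.71 FPKM in WT libraries. All PAD4-/- libraries were above all WT libraries, with replicates 3 and 4 the highest. This was a log2 fold change of 0.44 (SE 0.10, adjusted p = 0.0119), a ratio of 1.37, and 0.26 without both replicates (adjusted p = 0.0166). The call was lost only with median-of-ratios scaling and those replicates left out (adjusted p = 0.0566), among 19 alternatives with a lowest value of 0.000305.

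Ptpro (chromosome 6, 137252299 to 137464634), which encodes a receptor phosphatase, had 8.71, 9.09, 11.33 and 11.47 FPKM in PAD4-/- libraries and 7.29, 7.15, 7.20 and 7.46 FPKM in WT libraries. WT libraries were almost alike and PAD4-/- libraries lay above them in 2 steps. On the log2 scale the change was 0.42 (SE 0.08, adjusted p = 0.00827), a ratio of 1.40. The call held in each of the 19 alternatives (adjusted p = 0.000164 to 0.0376), and the log2 fold change was 0.26 without both PAD4-/- replicates 3 and 4.

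Ptprc, which encodes CD45, the abundant phosphatase of white blood cells, had 78.38, 78.53, 98.07 and 94.46 FPKM in PAD4-/- libraries and 79.33, 81.89, 79.29 and 75.04 FPKM in WT libraries. PAD4-/- replicates 1 and 2 lay within the WT range, and the ratio of 1.11 did not pass (adjusted p = 0.185). Ptpre, known for its role in macrophages and in osteoclast adhesion, had 53.04, 53.59, 36.69 and 36.61 FPKM in PAD4-/- libraries and 57.27, 60.31, 56.84 and 53.27 FPKM in WT libraries. Its log2 fold change of -0.36 (SE 0.13, adjusted p = 0.0741) did not pass, but it did without PAD4-/- replicate 1 or 2 (adjusted p = 0.0278 and 0.0305), with the replicate block (0.0411) and with library weights (0.00122), within a range of 0.00122 to 0.253.

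Genes around the cascade were read from 5 lists. Over 81 tested genes in all, 19 were higher and 5 lower (23.5% and 6.17%, against a background of 21.1% and 6.61%). Upstream of the ERK branch, 3 of 12 tested genes of Ras signalling rose (25.0%) and none fell. Among those that rose, the inhibitor gene Spred1 and the adaptor gene Gab1 had ratios of 1.24 and 1.40 (adjusted p = 0.0211 and 0.0243). The call of Spred1 was lost without PAD4-/- replicates 3 or 4 or WT replicates 3 or 4 (adjusted p = 0.0523 to 0.0605), and that of Gab1 without PAD4-/- replicates 3 or 4 or WT replicates 1, 2 or 4 (0.0555 to 0.0660).

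Of 22 tested kinases and scaffolds next to the cascade, 2 rose and 2 fell (9.09% each). Rps6ka4, which encodes the nuclear kinase MSK2, and Taok2, a MAP3K by function, had ratios of 1.30 and 1.20 (adjusted p = 0.0161 and 0.0191). Rps6ka2, which encodes a ribosomal S6 kinase downstream of ERK, and Pea15a, which holds ERK in the cytoplasm, had ratios of 0.687 and 0.894 (adjusted p = 0.0243 and 0.0344). The call of Rps6ka4 was lost without WT replicate 3 (0.0517), and that of Taok2 without PAD4-/- replicate 3 or WT replicates 1, 2 or 3 (0.0510 to 0.0612). Rps6ka2 lost its call without PAD4-/- replicate 3 or WT replicates 1 or 2 (0.0672 to 0.0699), and Pea15a without PAD4-/- replicates 3 or 4 or any 1 WT library (0.0659 to 0.0915).

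Of 18 tested genes listed as immediate early targets and transcription factors of the cascade, 5 rose and 1 fell (27.8% and 5.56%). The RNA decay factor gene Zfp36l1 had 1.33, 1.41, 3.79 and 3.84 FPKM in PAD4-/- libraries and 0.54, 0.60, 0.46 and 0.55 FPKM in WT libraries, so that the PAD4-/- libraries fell into 2 levels, both above WT (ratio 4.82, adjusted p = 0.0142). It passed the minimum only through the PAD4-/- libraries, the group where it was higher. Without it, 18 of 80 list genes were higher and 5 lower (22.5% and 6.25%). Of all 5614 genes with both group means at 1 FPKM or more, 21.0% were higher and 6.48% lower. Junb, a subunit of AP-1, had a ratio of 1.23 (adjusted p = 0.0166), a call lost without WT replicates 2 or 3 (0.0527 and 0.0519). Mef2c and Creb1, which encode transcription factors phosphorylated by the cascade more than induced by it, had ratios of 1.43 and 1.20 (adjusted p = 0.00768 and 0.0117). Zfp36 was the other gene that rose (ratio 1.18, adjusted p = 0.0341) and Jun the one that fell (ratio 0.846, adjusted p = 0.01999). The call of Zfp36 was lost without PAD4-/- replicates 2, 3 or 4 or WT replicates 1, 2 or 3 (0.0518 to 0.0986). That of Jun was lost without PAD4-/- replicates 3 or 4 or WT replicate 3 (0.0510 to 0.0599) and with the replicate block (0.0527).

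Of 15 tested tyrosine kinases, 6 rose and 1 fell (40.0% and 6.67%, against a background of 21.1% and 6.61%). With median-of-ratios scaling 3 were higher and 2 lower. Csf1r, the receptor for the growth factor of macrophages, had 633.35, 673.42, 756.87 and 720.91 FPKM in PAD4-/- libraries and 532.69, 527.45, 529.75 and 554.48 FPKM in WT libraries. The groups stood far apart (ratio 1.30, adjusted p = 0.00302). Axl, a receptor for apoptotic cells, had a ratio of 1.32 (adjusted p = 0.00462). Src itself had 2.53, 3.10, 2.47 and 2.53 FPKM in PAD4-/- libraries and 3.71, 4.37, 3.42 and 3.91 FPKM in WT libraries, a ratio of 0.690 (adjusted p = 0.00757). The summed osteoclast markers were likewise lower in PAD4-/- libraries (9.68 to 11.6 FPKM, against 17.1 to 20.4 in WT), and their part in the change of Src was not tested. Btk had a ratio of 1.17 (adjusted p = 0.0205), lost without PAD4-/- replicates 3 or 4 or WT replicates 2 or 4 (0.0507 to 0.0612). Jak2, Tyk2 and Csk were the other 3 that rose, with ratios of 1.32, 1.38 and 1.21 (adjusted p = 0.0242, 0.0282 and 0.0299). The calls of Jak2 and Tyk2 were lost without PAD4-/- replicates 3 or 4 or any 1 WT library (0.0524 to 0.0745), and that of Csk without PAD4-/- replicates 3 or 4 or WT replicates 1, 2 or 3 (0.0695 to 0.0847).

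Of 15 tested inhibitory receptors and adaptors of SHP-1 and SHP-2, 3 rose and 1 fell. Pilra, an inhibitory receptor of myeloid cells, had 5.08, 4.78, 5.90 and 6.48 FPKM in PAD4-/- libraries and 2.87, 3.01, 3.21 and 3.16 FPKM in WT libraries, a ratio of 1.82 (adjusted p = 0.00130). The adaptor genes Pag1, whose product anchors Csk, and Gab3 had ratios of 1.42 and 1.33 (adjusted p = 0.0234 and 0.0387). The receptor gene Slamf7 had one of 0.831 (adjusted p = 0.0143). The calls of Pag1 and Gab3 were lost without PAD4-/- replicates 3 or 4 or WT replicates 2, 3 or 4 for Pag1 (0.0574 to 0.0668), and without PAD4-/- replicates 1, 2 or 3 or any 1 WT library for Gab3 (0.0584 to 0.0929).

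The lists had 23.5% higher and 6.17% lower in all, against the background of 21.1% higher and 6.61% lower. The median log2 fold changes were 0.07 for Ras signalling, 0.06 for adjoining kinases, 0.07 for targets, 0.13 for tyrosine kinases and 0.03 for inhibitory receptors, beside 0.08 for all genes. With median-of-ratios scaling they were -0.01, -0.01, -0.01, 0.04 and -0.06, beside 0.00 for all genes, and 11 list genes were higher and 7 lower. Under that scaling Spred1, Taok2, Btk, Gab3, Tyk2, Csk and Zfp36 were not called (adjusted p = 0.0525 to 0.133). Without both PAD4-/- replicates 3 and 4, the calls of Spred1, Gab1, Rps6ka4, Taok2, Rps6ka2, Pea15a, Creb1, Junb, Jun, Zfp36, Btk, Jak2, Tyk2, Csk, Slamf7 and Pag1 were lost (adjusted p = 0.0514 to 0.168), and the log2 fold change of Zfp36l1 was 0.62 in place of 1.14. Leaving out single libraries moved the count of higher list genes to 9 and 11 without PAD4-/- replicates 3 and 4, and to 12, 9, 9 and 12 without WT replicates 1 to 4. The count of lower list genes was 8, 2 and 3 without PAD4-/- replicates 2, 3 and 4, and 3 without each of WT replicates 1, 2 and 3.

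In the authors' deposited table, 13 of the 54 members had a q-value below 0.05, 8 higher and 5 lower, beside 9.89% higher and 10.6% lower of the same 5674 genes. Of the 15 members called here, 11 were among those 13, in the same direction. Dusp5, Dusp18, Ptpn1 and Ptpn22 were called here alone. Map3k20 and Map4k3 were lower in the authors' deposited table alone (log2 fold change -0.24 and -0.16, q = 0.0445 and 0.0418). For Dusp1 the authors' deposited table gives a log2 fold change of -0.55 (q = 7.57e-05).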

How the data were processed

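RNA-seq was deposited by the authors as 1 table of FPKM per gene, to 2 decimals, beside their log2 fold change and q-value, whose test is not given in the sources used. Per the submitters' processing notes HISAT, Bowtie2, RSEM and the GRCm38 build were used. The number of reads behind the FPKM is unknown, so no counting interval is given; FPKM of the listed genes summed to between 381573 and 403848 per library. Groups and replicate numbers came from the sample titles. Genes with a mean of at least 1 FPKM (5674 of 6287) were tested two-sided in limma 3.58.1 (R 4.3.3) on log2(FPKM + 1). Variances were moderated robustly towards their trend with level, and p-values adjusted by Benjamini-Hochberg. No set test was run. The procedure was tested on simulated data with independent libraries and the same spread in both groups. In the real data the spread was mostly larger in PAD4-/- libraries, so that test cannot check the calls under such a difference. Coordinates are from a RefSeq table of GRCm38.p6, which held all 54 members, and exon overlaps from GENCODE M21. The members, lists and alternatives were chosen with earlier results of these data known. Values in each library are given for Dusp1, for each called member with separate groups, and for the highest member of each role; up to 4 called genes are named per list, except 1 that is not reported here. Library values of Map3k8, Dusp6, Ptprc and Ptpre were added after they were seen, as were the names of Zfp36, Jun, Jak2, Tyk2 and Csk.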

Additional observations from a re-analysis of the deposited data

Results flagged for a closer look

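A library stood far from the other 3 of its group for 3 members and 2 genes of the lists, among 146 groups of 4 in which chance would flag about 1 in 20, or 7.3. Ptpn2 had 21.95 FPKM in PAD4-/- replicate 1, against 19.09 to 19.23 in the other PAD4-/- libraries. Map3k10 had 7.71 FPKM in WT replicate 4, against 6.76 to 6.80 in the other WT libraries. Mapk6 had 78.44 FPKM in WT replicate 1, against 73.69 to 74.05 in the others. Src had 3.10 FPKM in PAD4-/- replicate 2, against 2.47 to 2.53 in the other PAD4-/- libraries, and stayed below every WT library. Slamf7 had 105.71 FPKM in WT replicate 4, against 120.15 to 122.70 in the other WT libraries.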

How the results depend on the processing

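No member reversed in any of the 19 alternatives, counting as reversed a change of sign with a call on either side. The calls of Dusp1, Mapk14, Mapk8ip3, Mapkbp1 and Ptpro held in each alternative run, and the other 10 called members lost theirs in at least 1. Of 39 members not called, 26 were called in at least 1 alternative. Against 11 higher and 4 lower members, there were 7 and 2 with a filter at a mean of 5 FPKM (where 36 members were tested), 28 and 10 with library weights, and 4 and 2 with median-of-ratios scaling without PAD4-/- replicates 3 and 4. Quantile normalization gave 7 higher members, and leaving out both PAD4-/- replicates 3 and 4 gave 1 lower member. Leaving out each library gave 7 to 18 higher and 1 to 7 lower members. Against 19 higher and 5 lower list genes, library weights gave 30 and 10. Leaving out both replicates gave 8 and 2. There were 11 higher list genes with median-of-ratios scaling, 4 with it and without both replicates, and 8 with quantile normalization. Leaving out each library gave 9 to 28 higher and 2 to 8 lower list genes. The share of all genes called is not given for these runs, except for median-of-ratios scaling alone. A count that moved can therefore not be read as a trait of the members or of the lists. The causes were not tested. With the replicate number as a block, 9 members were higher and 3 lower, and 3 list genes were lower. Same-numbered libraries did not deviate together (correlation -0.144 to -0.0322 in 4 pairs, and no library matched its own number best). The labels do not say whether they were prepared together, and such correlations cannot show that they were not. The block is therefore not read as a pairing. The missing read counts limit what can be said of members near 1 FPKM, such as Dusp18, Map3k6 and Dusp5. Their log2 fold changes depended on the pseudocount: -0.57 for Dusp5 at 0.1 and -0.15 at 5.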
